A study of Mus musculus with 8 samples.

Results

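Splicing factors and RNA helicases were examined in brain RNA of ADAR2 mutant mice. The members were the genes whose symbol on the array platform begins with Hnrnp, Srsf, Sf3, Snrp, U2af, Prpf, Lsm, Rbm, Ddx or Dhx, and 118 symbols fitted that rule. Rbms3 was left out, because all of its probes lay in the last part of the array, where names were not certain. The remaining 117 genes, with 173 probes, stood among 8653 named genes with 12131 probes. They comprised 13 hnRNP genes, 8 SR protein genes, 35 genes of snRNPs and spliceosome subunits, 24 RBM genes and 37 helicase genes of the DEAD and DEAH box classes.

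The arrays compared 4 male mutants, 19 weeks old and labelled ADAR-/-/GluR-BR/R, with brain RNA pooled from wildtype males of that age. The mutants lack ADAR2 and carry Gria2 alleles with the arginine codon that editing otherwise produces in the GluR-B subunit, so both changes are carried together and neither is seen alone. The sample labels list 4 mice in the pool, and the labelling protocol gives 6. Each mutant was hybridised once with its RNA in Cy5 and once in Cy3, which gave 8 arrays with the mouse as the replicate (n = 4). The pool is a single control, so the spread between wildtype mice does not enter any test. In whole-brain RNA, fewer cells of a type and less RNA per cell cannot be told apart. Ratios hold no level of a transcript, so the labelled tissue could not be checked against the level of its markers.

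Introns are removed by the spliceosome, whose snRNPs pair small nuclear RNAs with core proteins and read the splice sites. SR proteins bind exonic enhancers and mostly favour the use of an exon, while hnRNP proteins coat the nascent transcript and often oppose it. DEAD and DEAH box helicases use ATP to remodel RNA and RNA-protein complexes at steps from transcription to decay. ADAR2 edits many of its substrates in pre-mRNA, in duplexes of an exon with a downstream intron, so editing and splicing meet on the same molecule. ADAR2 also edits its own pre-mRNA, which creates a splice site there.

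The labels do not give the numerator of the deposited log2 ratio, so each gene is described by 2 quantities, both after the median of each array was set to 0. The mean ratio averages both arrays of a mouse. It contrasts mutant with pool where every ratio has the mutant on the same side of the ratio. Where every ratio has the same dye on top, it is a dye effect. The swap component takes the Cy5 array of a mouse (mutant in Cy5) minus its Cy3 array and divides by 2. It is mutant over pool where the deposited ratios were red over green, and pool over mutant where they were green over red. Where every ratio has the mutant on the same side, it is a dye effect. Its test is also the test of a difference between the dye orientations. The direction of mutant against wildtype, and which quantity holds it, are therefore not settled. The calls in either quantity may be dye effects, and "positive" and "negative" below refer to the deposited sign. Errors are moderated standard errors from limma, and a call is an adjusted p below 0.05 over all genes. Adarb1, which encodes ADAR2, had a swap component of -0.89 ± 0.13 (adjusted p = 0.0297), with mice 1 to 4 at -0.82, -1.28, -0.71 and -0.74. Its mean ratio was 0.36 ± 0.17 (adjusted p = 0.158), with the mice at -0.14, 0.64, 0.53 and 0.39. Its 3 probes had swap components of -0.10, -1.23 and -1.33, and all but the first passed over all probes (adjusted p = 0.0383 and 0.0424). The sources used here do not say whether its probes lie in the disrupted part of the gene, so this is no check of the labels.

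The arrays with the mutant in Cy3 had the wider spread, with a median absolute deviation of 0.98 to 1.44 on the log2 scale against 0.54 to 0.72 with the mutant in Cy5. Gene names were taken 11 spots further along than the platform lists them. With names so placed, 2 probes of the same gene had a Spearman rho of 0.255 in the mean ratio across 2543 genes, against -0.0102 at the same spot number, a description across genes that are not independent. All 117 members had a mean ratio and 114 a swap component; Hnrnpl, Sf3b3 and Srsf10 lacked at least 1 array, and their mean ratio rests in part on single arrays.

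In the mean ratio 42 of 117 members were called, against 29.1% of all 8605 genes. Of these 32 were positive and 10 negative, or 27.4% and 8.55% of the members, against 17.5% and 11.6% of all genes. On all 8 arrays 22 of 114 members were positive and 7 negative, against 12.7% and 7.76% of 8119 genes. The positive members were led by Ddx3x, Hnrnpa2b1, Ddx1, Srsf5 and Ddx5, and the lowest of the negative ones was Ddx28. The median mean ratio was 0.17 over the members and -0.02 over all genes. With the values as deposited, 25 members were positive and 13 negative, against 975 and 1506 of 8605 genes, and the median of all genes lay at -0.18. The count of 42 fell to 24 without mouse 2 (21 positive) and to 24 without mouse 3 (all positive). Of all genes 13.5% and 14.1% were called there, down from 29.1%. A fit of the Cy5 arrays on their own called 0 of 115 members and 0 of 8399 genes in limma, with 26 members and 2007 genes at an unadjusted p below 0.05. The Cy3 arrays on their own gave 35 positive and 6 negative members of 116, against 20.8% and 10.9% of all genes. Of the 42 called members 19 kept the call without each mouse in turn and under the other alternatives. These were the alternatives that tested genes, not probes, with both orientations and the shifted names. The 19 were Ddx3x, Hnrnpa2b1, Ddx1, Srsf5, Ddx5, Hnrnpdl, Rbm11, Hnrnpa1, Ddx17, Rbm39, Snrpn, Srsf2, Rbm3, Srsf3, Hnrnpd, Snrpd3, Dhx36, Hnrnpu and Prpf19, all positive. How many of all genes kept a call in this way was not counted, so the 19 have no share to be set against. Each of the 10 negative members lost its call without at least 1 mouse. Over all genes, leaving out 1 mouse took positive calls from 1503 to between 742 and 1035. Negative calls went from 1002 to between 422 and 707.

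Other alternatives ended further calls. With each run of 48 consecutive spots centred on its median, Hnrnpab (0.42), Ddx42 (0.48), Sf3a3 (0.46) and Prpf38b (0.40) lost the call. The call was lost and the value moved by over 1.5 times in Rbmxl1 (0.49), Ddx39b (0.43), Rbm10 (0.28), Lsm14b (0.11), Rbmx2 (0.21), Rbm19 (-0.21), Hnrnpk (-0.185), Snrpc (-0.34), Ddx25 (-0.23), Rbm14 (-0.43) and Ddx41 (-0.42). It moved as far with the call kept in Snrpn (0.53), Snrpd3 (0.52), Prpf19 (0.47), Rbm42 (1.16) and Ddx28 (-0.77). As deposited, Ddx42, Hnrnpab, Hnrnpa3, Lsm14b, Sf3a3, Prpf38b and Rbmx2 lost the call. With arrays scaled to one spread it was Hnrnpab, Lsm14b, Sf3a3, Rbmx2, Rbm19 and Hnrnpk, with ratios of small whole numbers removed Rbmx2 and Rbm19, and with a term for mice 1 and 2 against mice 3 and 4 Hnrnpk. When limma tested probes in place of genes, the only probes of Hnrnpk (adjusted p = 0.0544) and Rbmx2 (adjusted p = 0.0576) did not pass.

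By family, the share of members with a call was highest among hnRNP genes, and all counts are to be set against the 17.5% positive and 11.6% negative of all genes. Of the 13 hnRNP genes 8 were positive and 1 negative, with a median of 0.57. Of the 8 SR protein genes 3 were positive and none negative (median 0.56). Of the 35 snRNP and spliceosome genes 6 were positive and 1 negative (median 0.15), a positive share of 17.1%, near the 17.5% of all genes. Of the 24 RBM genes 7 were positive and 4 negative (median -0.01). Of the 37 helicase genes 8 were positive and 4 negative (median -0.01). The differences between families were not tested. With the values as deposited the mean over 4 arrays of the helicase medians was -0.08 in Cy5 and -0.01 in Cy3, and in Cy3 that of hnRNP genes was 0.82 and that of SR genes 0.49.

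**Figure D1:**
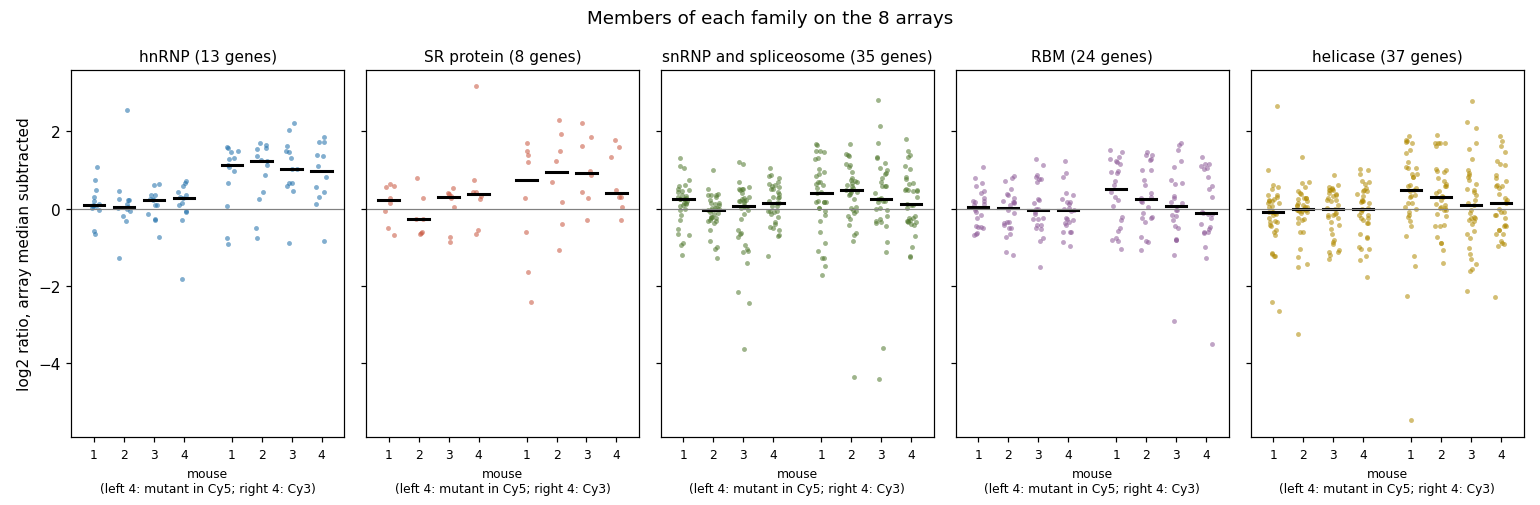
Each point is a member gene on 1 array (log2 ratio with the array median subtracted), each black bar the median of the family; the left 4 positions of a panel are mice 1 to 4 with the mutant in Cy5, the right 4 the same mice with the mutant in Cy3. The hnRNP medians lie between 0.04 and 0.28 on the left and between 0.98 and 1.22 on the right, and the helicase medians between -0.10 and 0.004 on the left and between 0.09 and 0.49 on the right.

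The stretch before the start site is shown for the member with the highest mean ratio among helicase, hnRNP, SR and RBM genes and for the lowest called member, since these genes stand at the ends of the range. The arrays measured transcripts, not promoters. The sequences are from RefSeq (GRCm38.p6), 120 bases up to the start site, 5′ to 3′ on the gene's strand, from the most upstream start where several are listed. Capitals mark the ETS core CCGGAAG, the CCAAT box and the TATA box TATAAA on either strand.
Ddx3x, chrX:13280902-13281021, + strand: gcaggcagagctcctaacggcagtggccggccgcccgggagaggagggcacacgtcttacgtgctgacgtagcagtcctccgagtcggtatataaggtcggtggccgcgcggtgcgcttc
Hnrnpa2b1, chr6:51469895-51470014, - strand: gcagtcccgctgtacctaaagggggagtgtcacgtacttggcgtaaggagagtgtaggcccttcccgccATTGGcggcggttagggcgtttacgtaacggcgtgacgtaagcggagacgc
Srsf5, chr12:80945379-80945498, + strand: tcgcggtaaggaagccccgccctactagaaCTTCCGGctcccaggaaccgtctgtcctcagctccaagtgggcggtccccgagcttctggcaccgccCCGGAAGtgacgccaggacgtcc
Rbm11, chr16:75592771-75592890, + strand: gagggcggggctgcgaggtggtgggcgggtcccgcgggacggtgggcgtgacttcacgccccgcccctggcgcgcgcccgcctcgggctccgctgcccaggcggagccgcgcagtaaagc
Ddx28, chr8:106011487-106011606, - strand: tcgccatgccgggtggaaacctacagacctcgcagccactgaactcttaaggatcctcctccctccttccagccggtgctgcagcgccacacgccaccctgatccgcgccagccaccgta
The Srsf5 stretch held the ETS core on both strands, the Hnrnpa2b1 stretch held a CCAAT box on the reverse strand, and the other 3 stretches held no exact match of the 3 motifs. Variants were not searched, and the Ddx3x stretch holds tataag, which differs from TATAAA in its last base. RefSeq promoters of 300 bases around a start were found for 102 of the 117 members. Of these, 33.3% held CCGGAAG in at least 1 promoter, against 9.93% of 27025 genes. Those are all genes with a RefSeq promoter, not only the genes named on the array. CCAAT was in 55.9% of members against 41.1% of genes, and TATAAA in 14.7% against 15.7%. Taking each gene's promoter with the most CG dinucleotides, the median count was 25 for members and 8 for all genes with a RefSeq promoter. Among the 31 members with a positive call and a promoter 35.5% held CCGGAAG, and among the other 71 it was 32.4%. Matches are descriptions of letters, not of bound sites.

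Among the hnRNP genes Hnrnpa2b1, Hnrnpdl and Hnrnpa1 stood highest. Hnrnpa2b1, which binds RNA in the nucleus and takes part in transport along dendrites, had values of 0.31, 0.23, 0.26 and 0.72 on the arrays of mice 1 to 4 with the mutant in Cy5, and of 1.48, 1.71, 2.04 and 1.85 with the mutant in Cy3. Every array was positive and the orientations did not overlap. Over the 4 mice its mean ratio was 1.08 ± 0.13 (adjusted p = 0.00755), and its swap component was -0.70 ± 0.11 (adjusted p = 0.0297). Hnrnpdl, a relative of the AU-rich element binding protein encoded by Hnrnpd, had 0.47, 0.46, 0.65 and 0.14 in Cy5 and 1.59, 1.58, 1.62 and 1.39 in Cy3, again all positive without overlap. The mean ratio was 0.99 ± 0.13 (adjusted p = 0.0076) and the swap component -0.56 ± 0.10 (adjusted p = 0.033). Hnrnpa1, the classic repressor of exon use, had 0.75, 0.26, 0.62 and 0.28 in Cy5 and 1.12, 1.55, 1.48 and 1.74 in Cy3. Its mean ratio of 0.97 ± 0.12 (adjusted p = 0.00755) came with a swap component that did not pass (-0.50 ± 0.13, adjusted p = 0.0631).

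Hnrnpd, which binds AU-rich elements and promotes mRNA decay, had 0.19, 0.03, 0.26 and -0.06 in Cy5 and 1.57, 1.66, 1.32 and 1.72 in Cy3. Values with the mutant in Cy5 were near 0 and those in Cy3 were high. Both quantities passed, the mean ratio at 0.84 ± 0.11 (adjusted p = 0.00794) and the swap component at -0.73 ± 0.11 (adjusted p = 0.0297). The other positive members were Hnrnpu, Hnrnpc, Hnrnpab and Hnrnpa3, with mean ratios from 0.56 to 0.80. Hnrnpc lost the call without mouse 3 or 4 (highest adjusted p = 0.0575), Hnrnpab without mouse 1, 2 or 3 (adjusted p up to 0.11) and Hnrnpa3 without each mouse (adjusted p up to 0.0846). Hnrnpab and Hnrnpa3 also lost it with the values as deposited. Hnrnpk, which binds C-rich RNA, was the negative one, with -0.66, -0.32, -0.72 and 0.60 in Cy5 and -0.91, -0.77, -0.90 and -0.84 in Cy3. Only mouse 4 with the mutant in Cy5 was above 0, and the mean ratio was -0.57 ± 0.16 (adjusted p = 0.0471), a call lost without mouse 1, 2 or 3 (highest adjusted p = 0.144) and with each run of 48 consecutive spots centred on its median (adjusted p = 0.519). Hnrnpl, Hnrnpll, Hnrnpf and Hnrnpm did not pass.

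Of the SR proteins, Srsf5, a splicing activator, had 0.58, 0.27, 0.54 and 0.42 in Cy5 and 1.50, 1.23, 2.23 and 1.78 in Cy3. All arrays were positive, and the mean ratio was 1.07 ± 0.15 (adjusted p = 0.00798), with a swap component of -0.62 ± 0.12 (adjusted p = 0.0356). Srsf3, the smallest SR protein, which also acts in mRNA export, had 0.15, -0.26, 0.33 and 0.34 in Cy5 and 1.69, 1.50, 1.61 and 1.60 in Cy3. The Cy3 values lay close together and mouse 2 in Cy5 was negative. In the mean ratio it reached 0.87 ± 0.13 (adjusted p = 0.00883) and in the swap component -0.73 ± 0.11 (adjusted p = 0.0297). Srsf2, a nuclear SR protein, had 0.57, -0.64, 0.28 and 0.44 in Cy5 and 1.40, 1.94, 1.85 and 1.33 in Cy3. Its mean ratio was 0.90 ± 0.13 (adjusted p = 0.00858), and its swap component, -0.73 ± 0.17 (adjusted p = 0.0532), did not pass.

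The others of the family were not called. Srsf1, the founding member, had a mean ratio of -0.13 ± 0.12 (adjusted p = 0.46), from 2 probes that disagree as described below. Srsf4 and Srsf6 stood at 0.62 (adjusted p = 0.242) and 0.49 (adjusted p = 0.0579), and Srsf10 at -0.39 (adjusted p = 0.506). Srsf9, singled out after its values were seen because it is known to repress editing by ADAR2, had -0.50, -0.66, -0.73 and -0.64 in Cy5 and 0.28, -0.39, -0.28 and -0.29 in Cy3. It was above 0 on 1 array, and its mean ratio of -0.40 ± 0.13 (adjusted p = 0.0695) did not pass.

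Of the 6 positive snRNP and spliceosome genes, 2 encode proteins of the Sm ring, the core that all major snRNPs but U6 share. Of the 4 Sm genes measured, Snrpn and Snrpd3 were positive, and the median of the 4 was 0.77. Snrpn, the imprinted Sm protein of neurons, had 0.52, -0.03, 0.48 and 0.29 in Cy5 and 1.50, 1.38, 1.70 and 1.81 in Cy3. Its mean ratio was 0.96 ± 0.13 (adjusted p = 0.00809), its swap component was -0.64 ± 0.11 (adjusted p = 0.0297), and its Cy3 values were all above its Cy5 values. Snrpd3, a core Sm protein, had 0.46, 0.29, 0.51 and 0.55 in Cy5 and 1.32, 1.12, 1.31 and 1.09 in Cy3, all positive, with a mean ratio of 0.83 ± 0.12 (adjusted p = 0.00821). Snrpb, the widely expressed paralog of Snrpn, had 1.31, -0.10, 1.15 and 0.50 in Cy5 and 1.66, 0.49, -0.18 and 0.76 in Cy3, and its mean ratio of 0.70 ± 0.23 (adjusted p = 0.0681) did not pass. Its mice disagreed in both orientations.

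Counts for the single particles cover the genes with these prefixes, against 29.1% of all genes called. Of 2 such proteins of U1, which reads the start of the intron, Snrpc was negative with -0.15, -0.30, -1.05 and -0.22 in Cy5 and -1.49, -0.12, -0.35 and -1.26 in Cy3 and a mean ratio of -0.62 ± 0.15 (adjusted p = 0.0302), and Snrpa did not pass. Snrnp70, a U1 protein outside the prefixes, was positive at 0.59 ± 0.12. Snrpc lost the call without mouse 1, 3 or 4 (highest adjusted p = 0.0967) and with runs of 48 spots centred (adjusted p = 0.137). Of 9 genes that act with U2 at the branch point, 1 passed, Sf3a3 with 0.44, 1.01, 0.50 and 0.38 in Cy5 and 0.41, 0.65, 0.70 and 0.11 in Cy3 and a mean ratio of 0.53 ± 0.14 (adjusted p = 0.0429), a call lost without each mouse (highest adjusted p = 0.147) and with the values as deposited. U2af1, which reads the end of the intron, stood at 0.11 ± 0.16 (adjusted p = 0.649). Sf3b6, the subunit that touches the branch point, had 0.26, -0.99, -1.13 and 0.07 in Cy5 and 0.94, 0.79, 1.04 and 0.67 in Cy3. It had the most negative swap component of the family, -0.65 ± 0.17 (adjusted p = 0.0623), which did not pass. Of 8 genes of the U4, U5 and U6 particles with these prefixes none passed. Outside the prefixes the U5 proteins Txnl4a (0.74 ± 0.20) and Eftud2 (0.50 ± 0.12) and the tri-snRNP protein Sart1 (0.56 ± 0.12) were positive. Prpf8, the large protein at the heart of the U5 particle, had 1.10, 0.34, -0.04 and 0.81 in Cy5 and -0.89, 1.15, 0.59 and 1.33 in Cy3 and a mean ratio of 0.55 ± 0.19 (adjusted p = 0.0823).

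Outside these particles Prpf38b, a factor related to spliceosome activation in yeast, had a mean ratio of 0.46 ± 0.12 (adjusted p = 0.0348), lost without each mouse (highest adjusted p = 0.115) and with the values as deposited. Prpf19, the ubiquitin ligase of the spliceosome, and Lsm14b, an RNP protein, were also positive at 0.77 and 0.55, the latter losing its call without each mouse in turn (highest adjusted p = 0.106) and with runs of 48 spots centred (0.11, adjusted p = 0.57). Lsm10, which builds the U7 particle for histone mRNA processing, had -0.53, -0.13, -0.26 and 0.15 in Cy5 and -1.10, -0.41, -4.41 and -0.72 in Cy3. Mouse 3 in Cy3 lay far below the rest. Neither its mean ratio of -0.93 (adjusted p = 0.109) nor its swap component of 0.73 ± 0.33 (adjusted p = 0.19) passed, and the latter was 0.29 without mouse 3.

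The RBM genes share an RNA recognition motif and little else, and they divided. Rbm11, a splicing regulator of brain and testis, had 0.80, 0.79, 1.14 and 1.24 in Cy5 and 1.51, 1.39, 0.73 and 0.30 in Cy3. It was the highest called member in the Cy5 orientation, and the mean of its 4 arrays was 0.99 in Cy5 and 0.98 in Cy3, with overlap. Its mean ratio was 0.99 ± 0.13 (adjusted p = 0.0076). Rbm39, a coactivator and splicing factor that works with U2AF, had 0.58, 0.72, 0.88 and 0.92 in Cy5 and 0.96, 1.01, 1.22 and 1.35 in Cy3 and a mean ratio of 0.96 ± 0.13 (adjusted p = 0.00782). All 8 values were above 0, and as means of 2 probes the orientations of Rbm39 did not overlap. Its probes went opposite ways between orientations. Their swap components were 0.19 ± 0.12 (adjusted p = 0.31) and -0.56 ± 0.11 (adjusted p = 0.0423), adjusted over all probes. Rbm3, the cold-inducible RNA-binding protein, had 0.67, 0.35, 0.76 and 0.18 in Cy5 and 0.93, 1.47, 1.65 and 1.09 in Cy3 and a mean ratio of 0.89 ± 0.14 (adjusted p = 0.0102).

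Rbm42 had 0.12, 0.10, -0.0005 and 0.12 in Cy5 and 1.47, 1.27, 1.53 and 1.04 in Cy3. Its Cy5 values were close to 0. Both its mean ratio, 0.71 ± 0.12 (adjusted p = 0.011), and its swap component, -0.62 ± 0.11 (adjusted p = 0.0316), passed, and the former missed the threshold without mouse 2 (adjusted p = 0.0504). Rbmxl1, Rbm10 and Rbmx2 were positive too, at 0.85, 0.71 and 0.45. Rbm10 lost the call without mouse 1, 2 or 4 (highest adjusted p = 0.112) and Rbmx2 without each mouse (highest adjusted p = 0.126), and all 3 with runs of 48 spots centred. Rbmx, the X-linked relative from which Rbmxl1 arose, did not pass, with -0.04, -0.49, 1.29 and 0.25 in Cy5 and 1.23, 0.99, 0.27 and -0.60 in Cy3 and a mean ratio of 0.36 ± 0.19 (adjusted p = 0.194). Near-identical copies such as Rbmx and Rbmxl1, or Snrpb and Snrpn, may share signal on cDNA probes, which was not tested.

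On the negative side stood Rbm12, Rbm14 (-0.68), Rbm6 and Rbm19 (-0.49). Rbm14 lost the call without mouse 2, 3 or 4 (highest adjusted p = 0.101) and Rbm19 without each mouse (highest adjusted p = 0.118). Rbm12 had -0.44, -0.51, 0.78 and -0.02 in Cy5 and -1.04, -0.73, -2.90 and -3.50 in Cy3. The Cy3 values of mice 3 and 4 lay far below the rest, and the mean ratio was -1.05 ± 0.22 (adjusted p = 0.0189), lost without mouse 3 (adjusted p = 0.0646). Its swap component of 1.0 ± 0.33 (adjusted p = 0.107) was the largest positive one of the 114 members, and it did not pass. Rbm6, which lies beside Rbm5 among splicing regulators lost in lung tumours, had -0.69, -0.35, -0.84 and -0.61 in Cy5 and -0.81, -0.10, -0.44 and -1.27 in Cy3. All 8 were negative, and the mean ratio of -0.64 ± 0.16 (adjusted p = 0.0306) was lost without mouse 1, 3 or 4 (highest adjusted p = 0.0949). These are means of 2 probes, of which 1 passed over all probes, at -1.17 (adjusted p = 0.0134). The other stood at -0.11 (adjusted p = 0.616) and was above 0 in Cy3 in mice 1 and 2.

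The helicases held both the highest and, among called members, the lowest gene. Ddx3x, which helps translation to start on structured mRNA, had 0.23, 0.24, 0.48 and 0.55 in Cy5 and 1.79, 1.71, 2.24 and 1.63 in Cy3. All were positive without overlap, the mean ratio was 1.11 ± 0.13 (adjusted p = 0.00755) and the swap component -0.73 ± 0.11 (adjusted p = 0.0297). Ddx1, which acts in tRNA ligation and in RNA granules of neurons, had 0.34, 0.19, 0.86 and 0.70 in Cy5 and 1.76, 1.71, 1.55 and 1.46 in Cy3 and a mean ratio of 1.07 ± 0.12 (adjusted p = 0.00755). Both of its probes passed.

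Ddx5 and Ddx17 are close paralogs that act as coactivators and in alternative splicing. Ddx5 had 0.25, 0.05, 0.37 and 0.45 in Cy5 and 1.87, 1.63, 2.08 and 1.74 in Cy3, and its 3 probes, at 1.10, 1.09 and 0.98 in the mean ratio, all passed. The gene's mean ratio was 1.06 ± 0.13 (adjusted p = 0.00755) and its swap component -0.78 ± 0.10 (adjusted p = 0.0297). Ddx17 had -0.13, -0.04, 0.49 and 0.18 in Cy5 and 1.73, 1.90, 1.69 and 1.88 in Cy3. Its Cy5 values lay on either side of 0, and its Cy3 values were high in every mouse. Its swap component of -0.84 ± 0.11 (adjusted p = 0.0297) was the most negative of all members and ranked 49 of 8119 genes from the lowest, beside a mean ratio of 0.96 ± 0.12 (adjusted p = 0.0076).

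Dhx36, which unwinds G-quadruplexes, had 0.36, 0.27, 0.56 and 0.49 in Cy5 and 1.52, 1.01, 1.01 and 1.16 in Cy3 and a mean ratio of 0.80 ± 0.12 (adjusted p = 0.00922). Ddx39b, an export factor, Ddx18, a nucleolar helicase, and Ddx42, which binds the U2 particle, were positive at 0.79, 0.79 and 0.63. Ddx39b lost the call without mouse 2 (adjusted p = 0.0535) and with runs of 48 spots centred (0.43, adjusted p = 0.0592), Ddx18 without mouse 2 or 3 (highest adjusted p = 0.0673) and Ddx42 without each mouse (highest adjusted p = 0.0927). Ddx6, the helicase of P-bodies, had -0.33, -0.04, 0.004 and -0.09 in Cy5 and 0.06, 0.41, 0.74 and 0.79 in Cy3. Its orientations did not overlap, and its mean ratio of 0.19 ± 0.14 (adjusted p = 0.336) did not pass. Among 12 Dhx genes 1 was positive, Dhx36, and 1 negative, Dhx34 at -0.87, which lost the call without mouse 2 or 3 (highest adjusted p = 0.0744). Among 25 Ddx genes 7 were positive and 3 negative. Over all genes 17.5% were positive and 11.6% negative.

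Ddx28, a helicase of mitochondrial ribosome assembly, had -0.60, -1.44, -1.13 and -1.78 in Cy5 and -0.44, -0.88, -1.57 and -2.29 in Cy3. All 8 were negative, with means of -1.24 in Cy5 and -1.29 in Cy3, and the mean ratio was -1.27 ± 0.25 (adjusted p = 0.0171), a call lost without mouse 2 or 3 (highest adjusted p = 0.0614). Ddx41, a DEAD box protein of the spliceosome that also senses DNA, had -0.67, -0.60, -1.12 and -0.99 in Cy5 and -0.31, -0.20, -1.31 and -0.92 in Cy3 and a mean ratio of -0.77 ± 0.18 (adjusted p = 0.0269). Ddx25, the gonadotropin-regulated helicase of testis, had -0.44, -1.04, -1.06 and -1.22 in Cy5 and -0.22, -0.44, -0.24 and -0.44 in Cy3 and a mean ratio of -0.64 ± 0.14 (adjusted p = 0.021). Both were negative on every array, and both lost the call without mouse 2, 3 or 4 (highest adjusted p = 0.089 and 0.0854) and with runs of 48 spots centred.

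**Figure D2:**
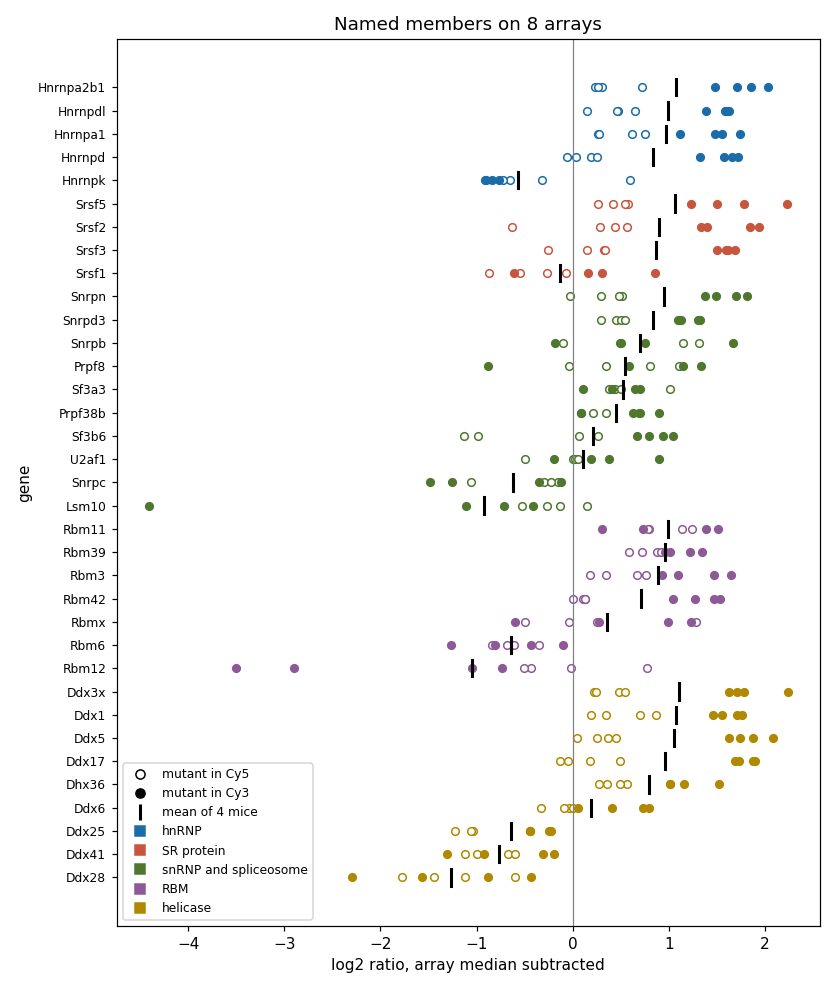
Each row is a named member; open circles are the 4 arrays with the mutant in Cy5, filled circles the 4 with the mutant in Cy3, and the vertical tick is the mean of the 4 mice (log2 ratio with the array median subtracted). For Ddx17 the filled circles lie between 1.69 and 1.90 and the open ones between -0.13 and 0.49, while the circles of Rbm11 intermingle.

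The orientations gave different sizes for most called members, as for called genes in general. For the 32 positive members the mean over the Cy5 arrays had a median of 0.35 (range 0.07 to 0.99), and over the Cy3 arrays it was 1.31 (0.47 to 1.84). The Cy3 mean was the higher in 30 of the 32, and likewise in 1426 of the 1500 positive genes of the whole table with values on all 8 arrays. The 10 negative members had medians of -0.57 in Cy5 and -0.83 in Cy3, and the Cy3 mean was the lower in 7 of 10, against 685 of 909 negative genes. Across 114 members the Cy5 and Cy3 means had a Pearson r of 0.598 and a Spearman rho of 0.64, a description over genes that share arrays, mice and pool. With the sign turned on the Cy3 arrays, 0 of 114 members were positive and 1, Ddx50, was negative on all 8 arrays, against 0.665% and 1.02% of 8119 genes.

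In the swap component 12 of 114 members were called, against 7.9% of 8119 genes. In limma 39 of 114 members and 2464 of 8119 genes had an unadjusted p below 0.05. All 12 called members were negative, and 0 members were positive, against 6.82% and 1.07% of genes. They were Hnrnpa2b1, Hnrnpd, Hnrnpdl, Hnrnpu, Hnrnpc, Srsf3, Srsf5, Snrpn, Rbm42, Ddx3x, Ddx5 and Ddx17, where Hnrnpu (-0.53 ± 0.11, adjusted p = 0.0413) and Hnrnpc (-0.66 ± 0.13, adjusted p = 0.0416) were chosen after their values were seen. All 12 were also positive in the mean ratio, as were 478 of the 554 genes with a negative swap call. For 31 of 114 members the Cy5 values all lay below the Cy3 values, and for 4 they all lay above, against 17.4% and 4.08% of genes. Among hnRNP genes it was 8 below and 1 above of 12. Under several alternatives none of the 12 calls held. With each array scaled to one spread limma called 0 of 114 members and 0 of 8119 genes, with 33 members and 1730 genes at an unadjusted p below 0.05. The count was also 0 with the values as deposited (39 members and 2423 genes unadjusted). It was 0 without each mouse in turn (33 to 39 members and 1781 to 2337 genes unadjusted). With a term for mice 1 and 2 against mice 3 and 4 it was 0 as well (39 members and 2613 genes unadjusted). The call of Adarb1 went with them.

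**Figure D3:**
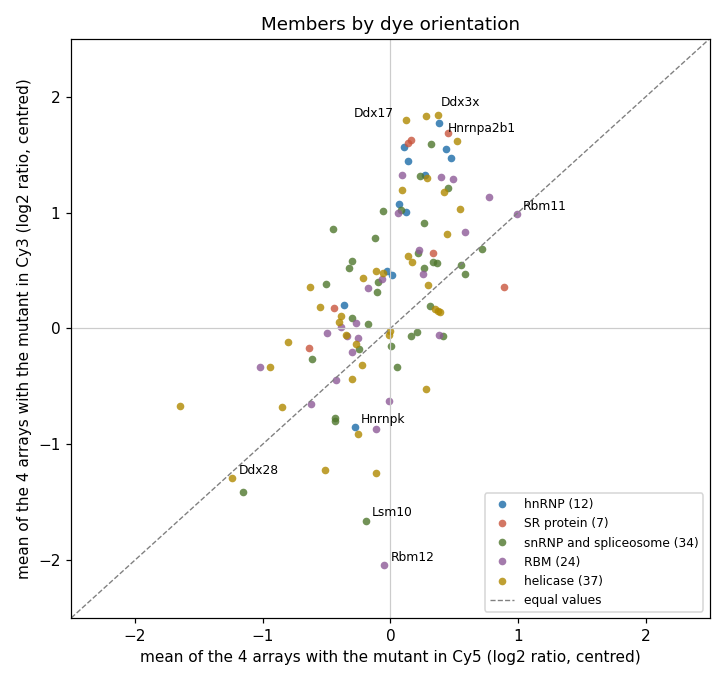
Each point is 1 of 114 members measured on all 8 arrays, at the mean of the 4 arrays with the mutant in Cy5 (horizontal, log2 ratio) and of the 4 with the mutant in Cy3 (vertical), coloured by family; the dashed line marks equal values. Of the 32 positive members 30 lie above the line, with Ddx17 at 0.12 and 1.80 and Rbm11 on the line at 0.99 and 0.98, and Rbm12 lies far below it at -0.05 and -2.05.

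Members with several probes did not always agree. Of 42 such genes, 17 had probes that differed in call and 19 had probes of both signs in the mean ratio. Srsf1 alone had calls in opposite directions, with 1 probe at -1.02 ± 0.17 (adjusted p = 0.0123) and the other at 0.76 ± 0.17 (adjusted p = 0.0229). The former read -0.56, -1.02, -2.69 and -1.51 in Cy5 and -2.22, -0.63, 0.33 and 0.15 in Cy3, and the latter 0.43, 0.47, 0.96 and 0.42 in Cy5 and 0.998, 0.96, 1.39 and 0.46 in Cy3. The latter was positive on every array, while the former was above 0 in Cy3 in mice 3 and 4. The largest gap was in Hnrnpm, at 1.24 ± 0.20 (adjusted p = 0.011) and -1.40 ± 0.51 (adjusted p = 0.089). Dhx15, a spliceosome helicase known to repress editing by ADAR2, had 1 probe at 0.76 ± 0.14 (adjusted p = 0.0137) and another at -0.78 ± 0.35 (adjusted p = 0.144). The second probe read 0.06, -0.04, -0.94 and -1.31 in Cy5 and -0.13, 0.13, -2.11 and -1.93 in Cy3, near 0 in mice 1 and 2 and low in mice 3 and 4. For Dhx30, Rbm19, Rbm43 and Rbms2 the probe that passed was negative, at -0.91, -1.18, -1.499 and -0.80, beside another probe above 0. The probes of Dhx29 stood at 0.49 and -1.49, and neither passed. Among called members, the probes of Rbm6, Hnrnpab, Hnrnpc, Prpf38b and Sf3a3 differed in call but not in sign. For 75 members with a single probe no such check exists. Over all 20595 probes 30.4% passed.

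**Figure D4:**
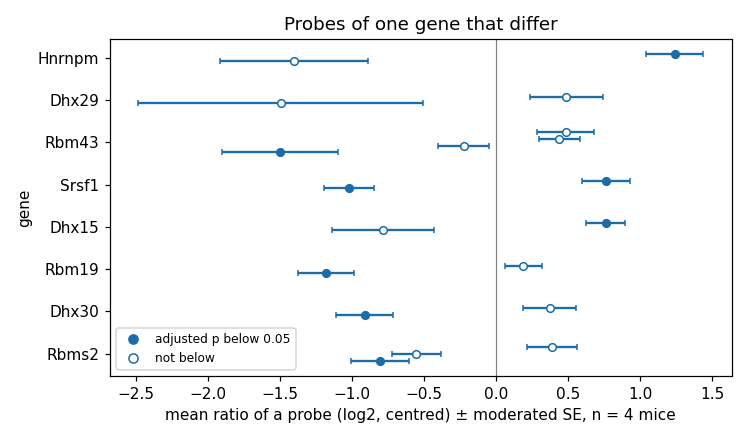
Each point is 1 probe of a gene at its mean ratio (log2, horizontal) with its moderated standard error over 4 mice; filled points passed the limma test. The 2 probes of Srsf1 are both filled and lie on opposite sides of 0, at -1.02 and 0.76.

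Other genes of RNA processing, from lists picked by function, had the calls that follow, against 17.5% positive and 11.6% negative of all genes. Of 40 measured splicing regulators outside the rule 12 were positive and 1 negative, led by Pcbp1, a C-rich RNA binder, at 1.07 ± 0.11, and Rbfox1, the neuronal exon regulator, at 0.98 ± 0.12. Mbnl3, of the muscleblind family, stood at -1.38 ± 0.25, with a swap component of 1.15 ± 0.16 (adjusted p = 0.0297). Of 44 further spliceosome genes 10 were positive and 1 negative, with Dnajc8 at 0.76 ± 0.13, Txnl4a at 0.74 ± 0.20 and Snrnp25, of the minor spliceosome, at -0.64 ± 0.15. Of 14 genes of the exon junction complex, decay and export 6 were positive, with the cap-binding Ncbp2 at 0.80 ± 0.14 and Rnps1 at 0.69 ± 0.12. Of 12 genes of snRNP assembly 3 were positive and 1 negative, with Gemin7 at 0.78 ± 0.13, Clns1a at 0.63 ± 0.15 and Snupn, the import adaptor of snRNPs, at -1.0 ± 0.17. Of 9 other helicases 2 were positive, the translation factors Eif4a2 (0.77 ± 0.15) and Eif4a1 (0.74 ± 0.17). The medians of these 5 lists lay between 0.12 and 0.35.

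Cell type markers had calls in the same fits, to be set against 17.5% positive and 11.6% negative of all genes. Of 8 neuron markers 5 were positive, with Uchl1 at 1.13 ± 0.13 and Eno2 at 0.94 ± 0.12. Of 7 astrocyte markers 4 were positive, with Glul at 1.25 ± 0.12 and Slc1a3 at 0.98 ± 0.13, and of 6 oligodendrocyte markers 4, with Cnp at 1.08 ± 0.13 and Qdpr at 0.92 ± 0.12. None of these 3 lists had a negative call, though Map2 (-0.10) and S100b (-0.53) lay below 0 without one. Of 5 microglia markers C1qb was positive (0.94 ± 0.12) and Aif1 and Ptprc were negative (-0.96 ± 0.16 and -0.89 ± 0.14). Of 5 blood markers Hba-a1 was positive (0.94 ± 0.12) and 3 were negative, among them S100a8 (-1.51 ± 0.22) and Alas2 (-1.24 ± 0.23). Of 3 endothelial markers Cdh5 was positive (0.82 ± 0.12) and Pecam1 negative (-1.51 ± 0.32). The part of these markers in the values of the members was not tested.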

How the data were processed

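Per the labels, brain RNA of each mouse was labelled with Cy3 or Cy5 and hybridised with the pool to 2-colour cDNA arrays. The authors deposited 1 value per spot and array, 20794 spots on 8 arrays, of which 20211 to 20559 were usable. The scale of log2 ratios with 1 constant per array was inferred from the deposited values, and the sources used here do not give the scanner, normalization or numerator. Cells at the log2 of 100000 plus the constant were treated as missing. No intensities were used, so precision rests on the 4 mice.

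Array medians were subtracted and the probes of a gene averaged. Both quantities were tested against 0 over the 4 mice with limma 3.58.1 under R 4.3.3 (lmFit with an intercept, eBayes, Benjamini-Hochberg over all genes). The fit was also run on simulated data. Those had independent genes, no dye effect and no shared pool, so that run cannot vouch for the calls here. The platform annotation, read 11 spots later for probes up to 20000, gave the names. That shift was chosen from the values. The members and lists were chosen with earlier results of these data known. The rule named, per family and direction, up to 3 called genes with the largest value and one sign on all 8 arrays (for the swap component after turning the Cy3 arrays), or 2 without a call where fewer than 2 passed. It added core members where measured (U2af2, Sf3b1 and Dhx9 were not), up to 8 genes whose probes differed and up to 2 genes per list and direction. The other called members and Srsf9 were added after their values were seen. Alternatives changed the centring, spread, probes, weak ratios, spot trends, names and mice.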

Additional observations from a re-analysis of the deposited data

Results flagged for a closer look

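Among 50 genes screened in the mean ratio and 17 in the swap component, 7 values stood apart from those of the other 3 mice, where chance marks about 1 in 20. In the mean ratio Srsf3 was at 0.62 in mouse 2 against 0.92 to 0.97 in the other mice, Ddx18 at 0.37 in mouse 4 against 0.89 to 0.96, and Rbmxl1 at 1.26 in mouse 3 against 0.69 to 0.75. Srsf9, which had no call, was at -0.11 in mouse 1 against -0.53 to -0.47. In the swap component Hnrnpc was at -1.05 in mouse 3 against -0.57 to -0.50, and Hnrnpu at -0.34 in mouse 4 against -0.62 to -0.57. Lsm10, also without a call, was at 2.07 in mouse 3 against 0.14 to 0.43, and that value comes from 1 array with a log2 ratio of -4.41. For Hnrnpc, 1 probe had no value on the Cy3 array of mouse 3. Another Hnrnpc probe read 2.56 on that array, against 0.08 in Cy3 in mice 1 and 2, and had no value for mouse 2 in Cy5.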

How the results depend on the processing

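The count of 42 members called in the mean ratio ranged from 24 to 32 without 1 mouse. It was 0 from the Cy5 arrays on their own. Of all genes 13.5% to 20.2% were called without 1 mouse, and 0 from the Cy5 arrays. Under the other alternatives with these names that tested genes, the count of members ranged from 30 to 47. The share of all genes ranged from 22.7% to 35.8%. With probes tested in place of genes, 51 members had at least 1 called probe. The 30.4% called there is a share of single probes, which is not the same measure as that count of genes. The count of 12 in the swap component was 0 without each mouse, with the values as deposited, with arrays scaled to one spread and with a term for mice 1 and 2 against mice 3 and 4, where no gene of the whole table was called. It was 24 of 92 members with ratios of small whole numbers removed, where fewer genes were tested, against 15.2% of 6176 genes. With names at the same spot number it was 2 of 108 members, against 4.88% of 8041 genes. With those names the mean ratio gave 18 positive and 20 negative members, against 1283 and 1075 of 8599 genes.

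Family medians, averaged over the 4 arrays of an orientation, were compared under alternatives chosen after seeing the data. As deposited, hnRNP genes moved to 0.82, SR genes to 0.49, snRNP genes to 0.049 and helicases to -0.0115 in Cy3, and RBM genes to -0.055 and helicases to -0.076 in Cy5. Scaling to one spread gave hnRNP genes 0.86 in Cy3, and centring runs of 48 spots gave helicases 0.035 in Cy5. Names at the same spot number gave hnRNP genes -0.12 in Cy5 and -0.33 in Cy3, SR genes -0.26, snRNP genes -0.16 and helicases -0.25 in Cy3, and helicases -0.093 in Cy5.

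Among the 50 genes whose mean ratio was recomputed under the alternatives, the sign turned for 4, none of them called. The other uncalled members were not tried. U2af1 gave -0.055 as deposited, -0.10 in Cy5 alone and -0.0078 to 0.26 without 1 mouse. Srsf1 gave 0.0235 without ratios of small whole numbers, 0.32 with runs of 48 spots centred and 0.18 in Cy3 alone. Adarb1 gave -0.53 and Ddx6 -0.11 in Cy5 alone. The cause was not tested. No paired analysis of mutant with wildtype mice was possible because the wildtype RNA is a single pool. The dye orientations were compared within each mouse.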
